A study of Mus musculus with 8 samples.

Results

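Replication-dependent histone genes encode the core histones H2A, H2B, H3 and H4 and the linker histone H1, and they were followed here in mouse embryonic fibroblasts (MEF) exposed to RHPS4. The group was every gene with a symbol that begins with Hist1h, Hist2h, Hist3h or Hist4h, the older names of the histone gene clusters, which gave 68 of the 24460 genes counted. Of the 68 genes, 6 were of class H1, 18 of H2A, 19 of H2B, 12 of H3 and 13 of H4. The H2B member Hist3h2bb-ps is a pseudogene. In the GENCODE annotation of GRCm38 (mm10), 54 lie in the Hist1 cluster on chromosome 13, 10 in Hist2 on chromosome 3 and 3 in Hist3 on chromosome 11, and 1, Hist4h4, lies on chromosome 6.

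RHPS4 is a small molecule that binds G-quadruplexes, the stacked four-stranded structures of guanine-rich DNA, and the study asked how it acts on mitochondrial gene expression and genome replication. Subconfluent wild type MEF received no RHPS4 (0 µM, 3 libraries), 2 µM RHPS4 (3 libraries) or 10 µM RHPS4 (2 libraries), in glucose medium with pyruvate and serum that was common to all groups. The labels give exposures of 16 or 24 h without tying these libraries to either time, and they do not say whether the libraries of a dose came from separate cultures, so p-values here measure only the spread between libraries, which may be technical. Libraries were made from total RNA after removal of nuclear ribosomal RNA, with random primers, and the fragments mapped uniquely to each gene were counted.

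Histone cluster genes are switched on as cells enter S phase, when newly made DNA has to be packaged into nucleosomes. Their mRNAs typically carry no introns and, unlike other mRNAs, end in a short stem-loop instead of a poly(A) tail. The stem-loop binding protein SLBP holds this structure during processing and translation, and the mRNAs are degraded quickly when DNA synthesis stops. In a culture of cycling cells, fewer cells in S phase and less histone mRNA per S-phase cell cannot be told apart from bulk RNA.

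The stem-loop was found after the stop codon in the annotated transcripts of 45 of the 68 genes, at 21 to 58 bases (median 31). In some of the others, among them Hist1h2ai with 393 bases, the annotation ends with the coding sequence. No stem-loop could be found there, which does not mean that the mRNA lacks it. Some annotated transcripts run on past the stem-loop, by 2445 bases in Hist4h4 but by 11 in Hist1h2ab, and counts per gene do not separate such forms. The stem-loop sequences are shown because they are the feature that sets these mRNAs apart and that total RNA libraries do not need a tail to capture. Capitals mark the 16 bases of the stem-loop, which form 6 pairs around a loop of 4 bases, read 5′ to 3′ with 5 bases on each side.
Hist1h2bj: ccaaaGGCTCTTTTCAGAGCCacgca
Hist1h2bk: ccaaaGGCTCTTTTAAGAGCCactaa
Hist2h2ac: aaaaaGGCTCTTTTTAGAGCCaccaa
Hist1h3g: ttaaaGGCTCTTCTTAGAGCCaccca
Hist4h4: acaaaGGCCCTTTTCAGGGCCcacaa
Hist1h4j: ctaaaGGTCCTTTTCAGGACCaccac
Hist2h4: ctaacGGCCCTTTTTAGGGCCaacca
The 16 bases of Hist1h2bj were shared by 26 transcripts, of which 3 were H1, 10 H2A, 8 H2B and 5 H3. Those of Hist1h2bk were found in 6 transcripts, also outside H4. The H4 transcripts had forms of their own, with the bases of Hist4h4 in 7 transcripts, those of Hist1h4j in 2 and those of Hist2h4 in 2. The forms of Hist2h2ac and Hist1h3g were found once each.

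The smallest library held 10455965 counts and the largest 26688121. By these totals, before TMM scaling, 3 counts corresponded to between 0.112 and 0.287 CPM (the counts of a gene relative to the size of its library). This limit covers counting error only. The mitochondrial share of counts was 13.2 to 14.4% at 0 µM, 7.40 to 8.26% at 2 µM and 5.33 to 6.32% at 10 µM, which is why levels are given after TMM scaling and not per total count. The summed level of the 10 fibroblast markers was high in every library but moved with dose. It was 12754 to 13261 CPM at 0 µM, 11426 to 11772 CPM at 2 µM and 11123 to 11705 CPM at 10 µM. Not every marker was high, with untreated means of 7.25 CPM for Thy1 and 0.996 CPM for Lum. All 10 markers had negative log2 values at 10 against 0 µM (median -0.28) and 9 had them at 2 against 0 µM (median -0.33). Markers of macrophages, epithelium, endothelium and muscle summed to no more than 11.4 CPM in any library and those of neurons to at most 57.6 CPM. Of all these markers, the growth factor receptor Pdgfrb was lower (log2 fold change -0.60) and the neuronal tubulin Tubb3 higher (1.42) at 10 against 0 µM RHPS4, and the part of such differences in the histone results was not tested. For a set of H2A and H3 genes the second 10 µM and the third 2 µM library stood apart from their replicates, and results are also given without both.

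Histone genes took between 0.628 and 0.852% of the counts of a library. Of the 68 genes, 56 had counts high enough to be tested (5 H1, 13 H2A, 16 H2B, 10 H3 and 12 H4), with 14296 genes tested in all. The other 12 were Hist1h2ao, Hist1h2ap, Hist2h2aa1, Hist1h2bq, Hist1h2br, Hist2h3c1, Hist2h3c2 and Hist1h4m, which had no count in any library, and Hist1h1t, Hist1h2ba, Hist1h2aa and Hist2h2aa2, with at most 9 counts in a library. Near-identical copies limit what unique mapping can count. The share of 75-base stretches found in no other gene was taken from the transcript start to the end of the stem-loop. Without a stem-loop it was taken to the stop codon (the whole transcript for the pseudogene Hist3h2bb-ps). Genes that overlap in position were left out of the comparison. In the 8 genes at 0 this share was at most 11.1%. In the 56 tested genes this share ran from 6.53 to 100%, with a median of 51.8%, so a value near the low end leaves its gene uncertain against its copies.

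Per kilobase of coding sequence, the H4 gene Hist1h4d had the highest level in untreated MEF, at 2515 CPM per kilobase, followed by the H2B gene Hist2h2bb at 1297. Among H1 genes the leading levels were 543 CPM per kilobase for Hist1h1e, 454.3 for Hist1h1b and 453.6 for Hist1h1d. Hist1h3f led the H3 genes with 622 CPM per kilobase and Hist1h2ak the H2A genes with 364. The lowest tested coding gene was the H2B gene Hist3h2ba, with 2.02 CPM per kilobase. Since the countable share of each transcript differs, the level of a gene with close copies covers only part of its mRNA. The counts are also not limited to the coding sequence, and the annotated sequence outside it differs between genes. The order of the genes may reflect this in part.

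At 10 µM RHPS4 the histone genes were lower than in untreated MEF in every class. Summed over all 68 genes, the level was 7550 ± 860 CPM (SD, n = 3) at 0 µM and 5835 ± 88.6 CPM (n = 2) at 10 µM, a log2 ratio of -0.37. The median log2 fold change of the 56 tested genes was -0.44, beside 0.02 for all genes tested, and 53 of the 56 had a negative value. Both 10 µM libraries lay below all 3 untreated libraries in 41 of the 56 genes, beside 20.0% of all genes tested. The order of the classes depended on the library. Over the untreated mean, the first 10 µM library had log2 ratios of -0.19 for H1, -0.35 for H2A, -0.43 for H2B, -0.40 for H3 and -0.46 for H4. The second had -0.25 for H1, -0.95 for H2A, -0.34 for H2B, -0.54 for H3 and -0.18 for H4.

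Linker histone H1 binds the DNA between nucleosomes. The summed H1 level was 1313, 1150 and 1126 CPM in the untreated libraries and 1046 and 1003 CPM at 10 µM, a log2 ratio of -0.22. All 5 tested H1 genes had negative log2 values in edgeR, and 2 had an unadjusted p under 0.05, beside 4205 of the 14296 genes tested. None of the 5 passed the test of an adjusted p under 0.01 with a change over 1.5-fold. Hist1h1e was closest, with 393, 344 and 340 CPM at 0 µM and 278 and 246 CPM at 10 µM, so that the groups did not overlap. Its log2 fold change was -0.45 ± 0.09 (SE of the fit, adjusted p = 0.0102). Hist1h1b and Hist1h1d had log2 fold changes of -0.12 and -0.15.

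**Figure D1:**
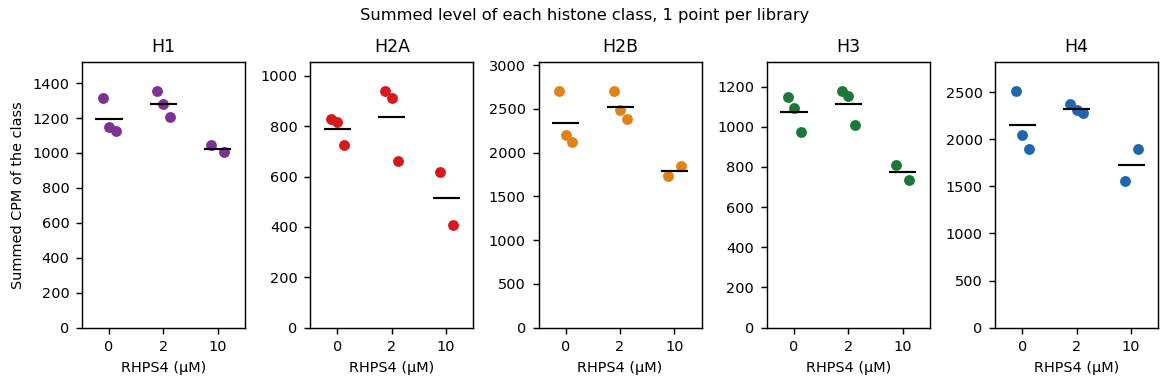
Summed CPM of the H1, H2A, H2B, H3 and H4 genes (y axis, starting at 0) by RHPS4 dose in µM (x axis); points are libraries and bars are means. In H1, H2A, H2B and H3 both 10 µM libraries lie below all untreated libraries, while in H4 the second 10 µM library (1895 CPM) is level with the lowest untreated library (1893 CPM).

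H2A forms the outer dimers of the nucleosome together with H2B. The summed H2A level was 830, 817 and 726 CPM at 0 µM and 620 and 409 CPM at 10 µM, a log2 ratio of -0.62, with the second 10 µM library well below the first. Hist1h2ai (chromosome 13, 21716422 to 21716814) passed the test. Its level was 133, 119 and 109 CPM in the untreated libraries and 84.5 and 66.0 CPM in the 10 µM libraries, and the change was -0.68 ± 0.13 (log2, adjusted p = 0.00642). Only 10.7% of its 75-base stretches up to the stop codon were its own, so its counts may rest on a small part of its sequence. Hist2h2ac (chromosome 3, 96220361 to 96220880) had 140, 110 and 107 CPM at 0 µM and 78.0 and 80.3 CPM at 10 µM. With a log2 fold change of -0.58 ± 0.12 (adjusted p = 0.00897), it fell just short of the 1.5-fold limit and was not called. Hist1h2ak and Hist1h2ag had larger estimates, -0.94 ± 0.34 and -1.05 ± 0.27, which did not pass (adjusted p = 0.0923 and 0.0232). Their 10 µM libraries lay far apart, at 109 and 40.1 CPM for Hist1h2ak and at 13.7 and 6.11 CPM for Hist1h2ag.

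H2B genes included both members with the smallest adjusted p. The summed H2B level was 2703, 2201 and 2121 CPM at 0 µM and 1737 and 1853 CPM at 10 µM, a log2 ratio of -0.38. Hist1h2bc (chromosome 13, 23684199 to 23692908) had 179, 163 and 150 CPM in untreated cells and 97.7 and 108 CPM at 10 µM. All of its untreated values lay above both 10 µM values, and it fell by 37.3% (log2 -0.67 ± 0.09, adjusted p = 0.00081). Only 14.1% of its 75-base stretches up to the stop codon were its own, and 67.9% were shared with Hist1h2bg. No stem-loop was found in its annotated coding transcripts. Its annotated gene reaches far beyond its coding sequence of 381 bases, so its counts may come in part from outside that sequence. Hist1h2bj (chromosome 13, 22043214 to 22043676) had 77.7, 64.5 and 59.1 CPM at 0 µM and 41.0 and 40.7 CPM at 10 µM, so that it fell by 38.8% (log2 -0.71 ± 0.12, adjusted p = 0.00288). Hist1h2bk, with a log2 change of -0.47 ± 0.10, met the p threshold (adjusted p = 0.00962) but not the fold threshold. The 3 H2B genes with the highest levels changed less and were not called, with log2 fold changes of -0.40 for Hist2h2bb, -0.24 for Hist1h2bb and -0.23 for Hist1h2bg.

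No H3 gene passed the test, though both 10 µM libraries lay below all untreated libraries in 9 of 10, beside 20.0% of all genes tested. The summed H3 level was 1148, 1092 and 977 CPM at 0 µM and 810 and 737 CPM at 10 µM, a log2 ratio of -0.47. All 10 tested H3 genes had negative log2 values in edgeR, from -0.31 to -1.09. In the same fit 6 of them had an unadjusted p under 0.05, beside 4205 of the 14296 genes tested. Hist1h3e had a close spread, with 226, 211 and 200 CPM at 0 µM and 161.4 and 160.7 CPM at 10 µM. Its change of -0.40 ± 0.08 met the p threshold (adjusted p = 0.00627) but was smaller than 1.5-fold. Hist1h3a had 38.3, 33.9 and 28.2 CPM at 0 µM and 23.6 and 17.8 CPM at 10 µM, a log2 change of -0.68 ± 0.14 (adjusted p = 0.0112). Hist1h3f and Hist1h3b had log2 changes of -0.43 and -0.54, also without overlap between the groups.

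H4 pairs with H3 at the centre of the nucleosome, and its genes held the largest change that passed. Hist4h4 (chromosome 6, 136801553 to 136804415) is the only member outside the 3 larger clusters. Up to the end of its stem-loop, it shared none of its 75-base stretches with a gene lying elsewhere. It had 105, 76.8 and 79.0 CPM at 0 µM and 40.7 and 54.7 CPM at 10 µM. It fell by 44.8% (log2 -0.86 ± 0.15, adjusted p = 0.00382). Hist1h4j (chromosome 13, 21735064 to 21735837) had 63.1, 48.4 and 51.6 CPM in untreated cells and 28.5 and 38.2 CPM at 10 µM, and it fell by 38.5% (log2 -0.70 ± 0.14, adjusted p = 0.00751). The most abundant H4 gene, Hist1h4d, was at 920, 744 and 689 CPM at 0 µM and at 626 and 687 CPM at 10 µM. Its log2 change was -0.26 ± 0.12 (adjusted p = 0.166), less than that of the called H4 genes, and Hist1h4h and Hist1h4f had -0.38 and -0.35. The summed H4 level was 2514, 2042 and 1893 CPM at 0 µM and 1560 and 1895 CPM at 10 µM, a log2 ratio of -0.32.

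In all, 5 of the 56 tested histone genes were called lower at 10 against 0 µM (Hist1h2ai, Hist1h2bc, Hist1h2bj, Hist4h4 and Hist1h4j), beside 1.14% of all genes tested. Without a fold limit the count was 9, beside 2.46% of all genes tested. The number of calls moved with the libraries: it was 3 without the second 0 µM, the second 2 µM or the second 10 µM library, and without the first 10 µM library it was again 5, of which only Hist1h2ai was among the first 5. It was 10 with DESeq2 and 1 when only the 0 and 10 µM libraries were fitted.

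**Figure D2:**
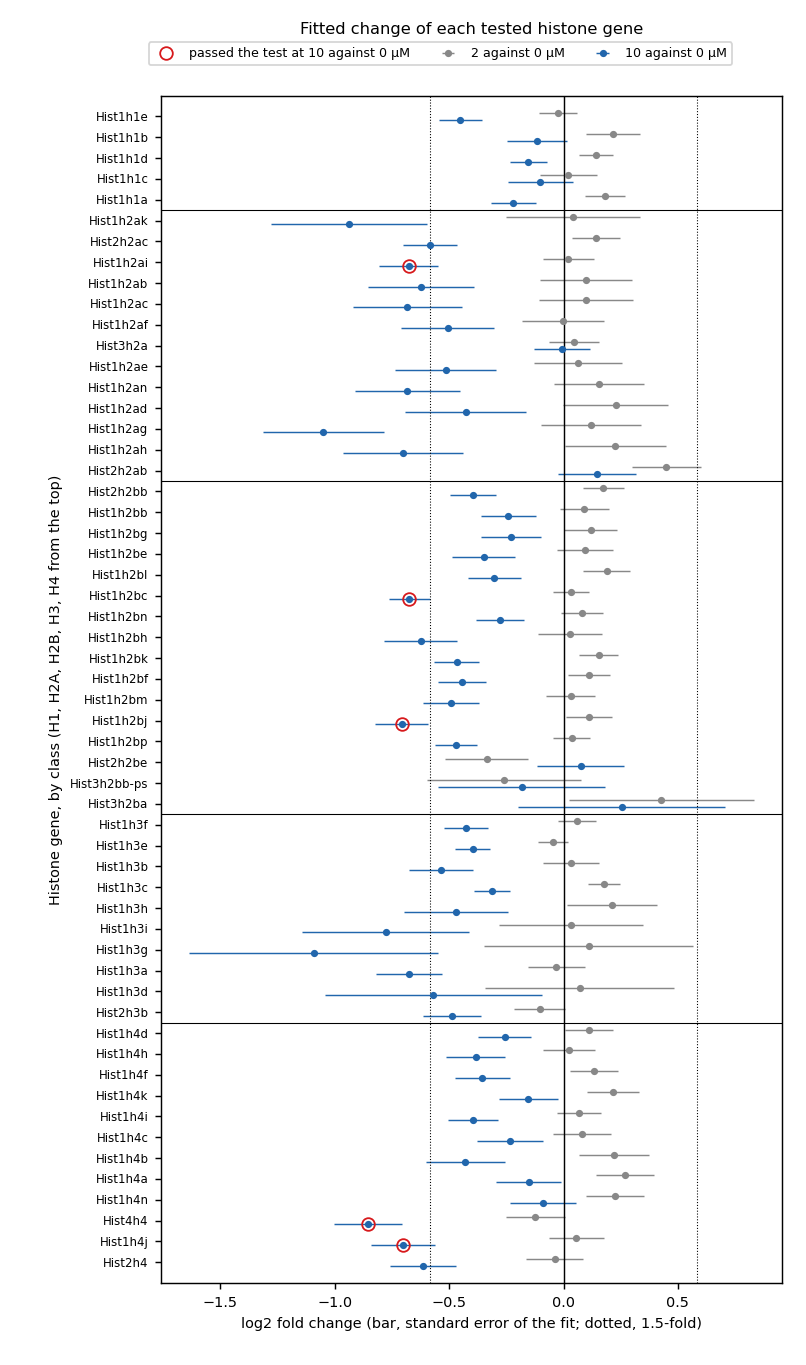
Fitted log2 fold change (x axis) of the 56 tested histone genes (y axis, by class), for 2 against 0 µM in grey and 10 against 0 µM in blue, with bars for the standard error of the fit; dotted lines mark 1.5-fold. Of the blue points 53 lie below 0, the 5 circled in red passed the test, and the widest blue bar is that of Hist1h3g.

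As an estimate, the difference between the RHPS4 doses was larger than that between 10 and 0 µM, and this gap was not tested. The summed level was 8079 ± 509 CPM (SD, n = 3) at 2 µM against 5835 ± 88.6 CPM at 10 µM, a log2 ratio of -0.47. The median log2 fold change of the 56 genes was -0.50, beside 0.03 for all genes tested, and 54 of 56 values were negative. Both 10 µM libraries lay below all 2 µM libraries in 40 of 56 genes, beside 24.9% of all genes. By class, the log2 ratio of the summed level was -0.32 for H1, -0.70 for H2A, -0.49 for H2B, -0.53 for H3 and -0.43 for H4. Since both comparisons use the same 10 µM libraries, they are not independent of each other.

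At 10 against 2 µM, 9 genes were called lower, beside 1.59% of all genes tested, namely 3 of H2A, 3 of H2B, 1 of H3 and 2 of H4. They were Hist2h2ac (log2 -0.72), Hist1h2ai (-0.70), Hist1h2ag (-1.17), Hist1h2bc (-0.71), Hist1h2bk (-0.62), Hist1h2bj (-0.82), Hist1h3a (-0.64), Hist4h4 (-0.73) and Hist1h4j (-0.76). Hist1h2bc had the smallest adjusted p (0.000437), from 172, 171 and 160 CPM at 2 µM to 97.7 and 108 CPM at 10 µM. Hist1h2bk had 139.4, 139.9 and 123 CPM at 2 µM and 80.8 and 93.4 CPM at 10 µM, again without overlap (adjusted p = 0.00131). Without a fold limit, 16 genes passed, beside 5.13% of all genes, and these included Hist1h1e (-0.43, adjusted p = 0.00843) and Hist2h2bb (-0.57, adjusted p = 0.00279). Leaving out a library gave between 3 genes, without the second 2 µM library, and 15 genes, without the first 0 µM library, and the count was 5 without the first 2 µM library.

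At 2 µM RHPS4 no histone gene differed from untreated MEF by the test in edgeR or in DESeq2, where 0.497% of all genes tested passed in edgeR. An unadjusted p under 0.05 was found for 2 of the 56 genes, beside 21.3% of all genes tested. These were Hist2h2ab (log2 0.45) and Hist1h3c (0.18), named here after their values were seen. The median log2 fold change was 0.09, with 47 of 56 values positive, and all 2 µM libraries lay above all untreated libraries in 2 genes, beside 12.7% of all genes. The summed level of 8554, 8142 and 7542 CPM at 2 µM overlapped that of 8507, 7301 and 6843 CPM at 0 µM. Hist1h4d had 894, 816 and 832 CPM at 2 µM, within the range of the untreated libraries, and Hist1h2bc 172, 171 and 160 CPM, likewise within it. The smallest adjusted p of any histone gene was 0.122.

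**Figure D3:**
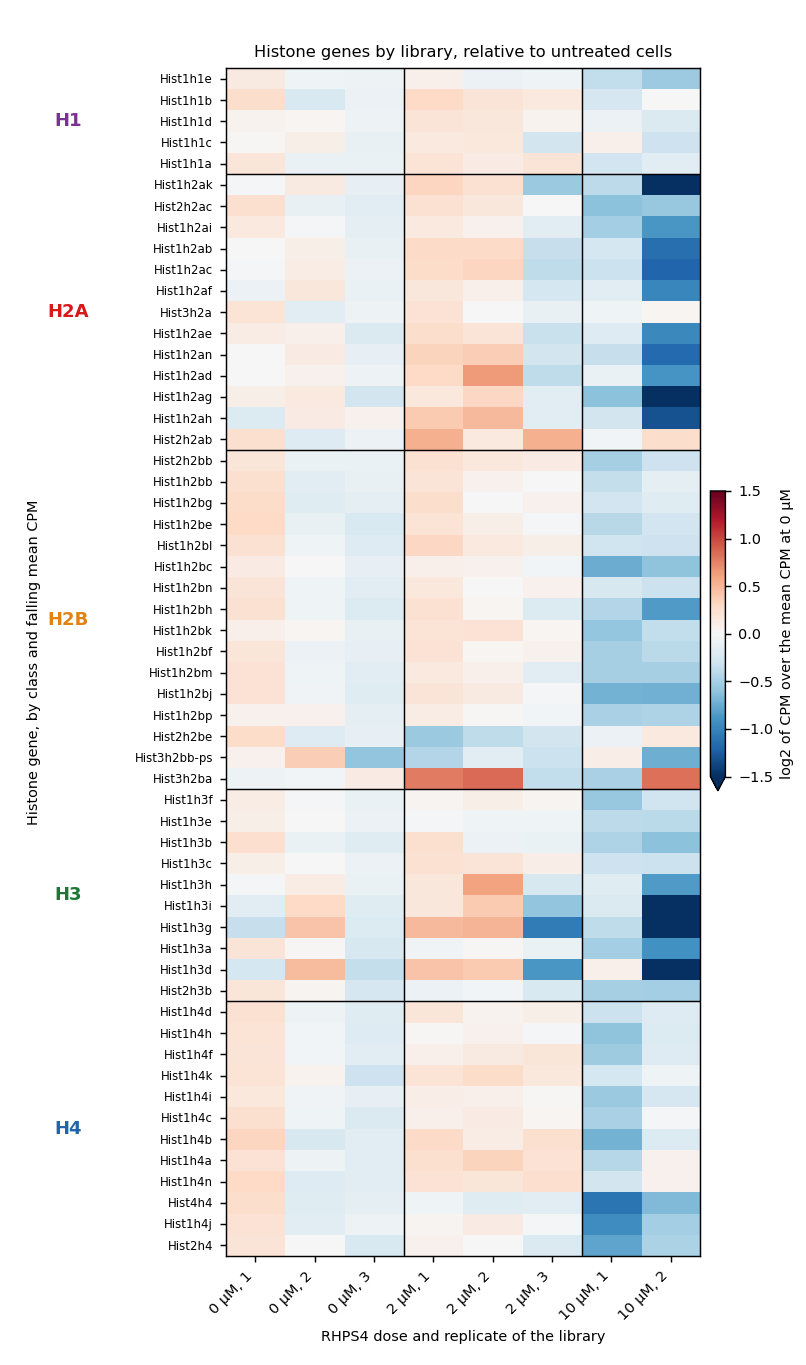
Level of the 56 tested histone genes (y axis, by class and falling mean CPM) in the 8 libraries (x axis, RHPS4 dose and replicate), as the log2 of CPM over the mean CPM at 0 µM, blue for lower and red for higher; the darkest blue covers all values of -1.5 or less. Most genes are blue in both 10 µM libraries, and a set of H2A and H3 genes is much darker in the second 10 µM library and also blue in the third 2 µM library.

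The libraries of a dose did not agree equally well for all histone genes. In the second 10 µM library, 14 of the 56 genes were lower than in the first by a log2 ratio of -0.50 or less. Of these, 9 were H2A, 4 H3 and 1 H2B. This ratio was reached by 6.65% of all genes tested and by 1.96% of the 8974 with a mean of at least 10 CPM. The H2B member was the pseudogene Hist3h2bb-ps, with only 21 and 10 counts in the 10 µM libraries. All 14 were also lower in the third 2 µM library than in the mean of the other 2 µM libraries. These genes were singled out after their values were seen. Hist1h3g, an H3 gene, had 27.7 CPM in the first 10 µM library and 5.76 in the second (log2 ratio -2.26). At 2 µM it had 50.2, 51.2 and 17.3 CPM. Hist1h3d had 32.9 and 8.92 CPM at 10 µM (log2 ratio -1.88) and 42.1, 41.0 and 17.1 CPM at 2 µM. Among the 8974 tested genes with a mean of at least 10 CPM, Hist1h3g ranked first and Hist1h3d second from the bottom in both ratios. Hist1h3i, Hist1h2ak and Hist1h2ag ranked 4, 5 and 9 from the bottom in the ratio at 10 µM.

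H4 genes went the other way between the 10 µM libraries, with all 12 log2 ratios between 0.13 and 0.51. Over the 56 genes, the log2 ratio of the 10 µM libraries had a Pearson r of -0.47 and a Spearman rho of -0.49 with GC content, as a description across genes that share libraries and sequence, and over all genes tested the r was -0.05. The GC content of 27 of the 56 genes was at least 65%, as was that of 2.04% of all tested genes with an annotated sequence. Within this range the median ratio was -0.83 for 11 H2A genes and -0.28 for 10 H3 genes and 0.41 for 6 H4 genes. GC content also differed between these classes, at 65.1 to 66.0% for the H4 genes, 66.7 to 69.3% for H3 and 66.9 to 70.03% for H2A. The part of base composition in the pattern was not tested. With the 14 genes left aside, the median log2 fold change at 10 against 0 µM was -0.39 over the other 42 genes. Both 10 µM libraries lay below all untreated libraries in 30 of these 42, beside 20.0% of all genes tested. Fitted without the second 10 µM and the third 2 µM library, the median was -0.41, 53 of 56 values stayed negative, and 1 gene, Hist1h2bc, passed the test, with the lone 10 µM library assumed to vary like the others.

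**Figure D4:**
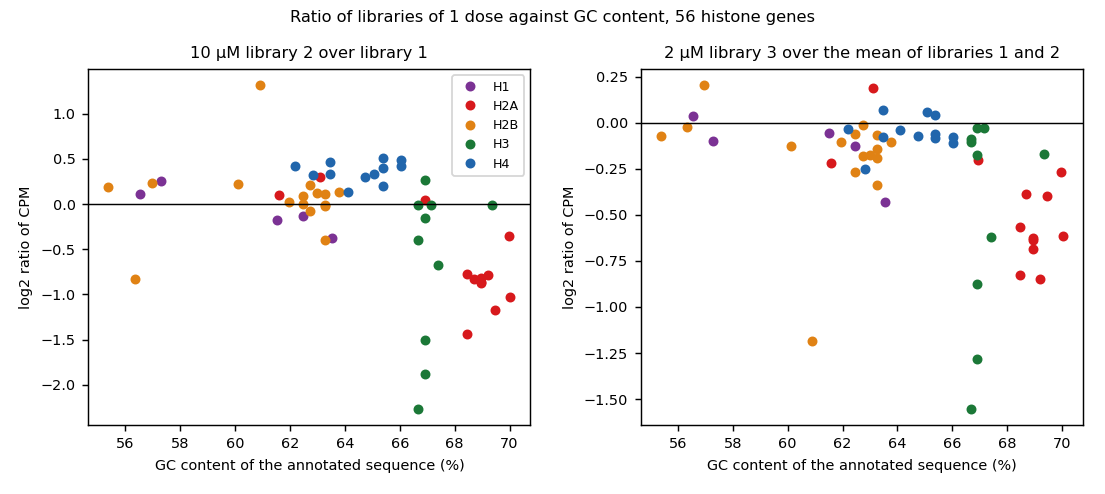
Log2 ratio of CPM between libraries of the same dose (y axis) against the GC content of the annotated sequence in % (x axis) for the 56 tested histone genes, coloured by class; left, the second over the first 10 µM library, and right, the third over the mean of the other 2 µM libraries. The lowest points are H3 genes near 67% GC, most H2A genes lie below 0 on both sides, and all H4 genes lie above 0 on the left.

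Genes that make, process or deposit histones, and genes of S phase, were taken from 6 lists. The list of S phase and DNA replication had 29 tested genes, all with negative log2 values at 10 against 0 µM (median -0.32), and 2 were called lower, beside 1.14% of all genes tested. These were Cdc6, which loads the replicative helicase (log2 -0.63, adjusted p = 0.000991), and Clspn, an adaptor of the replication checkpoint (-0.62, adjusted p = 0.00351). At 10 against 2 µM, 8 of the 29 were called lower, beside 1.59% of all genes tested, among them Cdc6 (-0.87), Clspn (-0.81), Fen1 (-0.75), Uhrf1 (-0.71), Mcm5 (-0.66), Rrm2 (-0.65) and Tk1 (-0.61). The 2 most abundant genes of the list, Rrm1 and Pcna, had log2 values of -0.28 and -0.32 at 10 against 0 µM and were not called. No gene of any of the 6 lists was called at 2 against 0 µM, where the smallest adjusted p was 0.0246, for Ccne2.

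Slbp, named for its role in binding the stem-loop, had 135, 111 and 115 CPM at 0 µM and 93.7 and 88.7 CPM at 10 µM. The groups did not overlap, but the log2 change of -0.39 ± 0.09 did not pass (adjusted p = 0.0175). Of the 16 genes of histone mRNA processing and decay, 12 had negative values and none was called at 10 against 0 µM, where the smallest adjusted p was 0.00268. At 10 against 2 µM, 1 of the 16 was called lower, beside 1.59% of all genes tested, namely Srrt (-0.70), an RNA-processing partner of the cap-binding complex. The most abundant genes of this list were Srrt, at -0.57 for 10 against 0 µM, and the RNA helicase Upf1, at -0.41.

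Of 13 genes of histone gene transcription, none was called at 10 against 0 µM (median log2 -0.32, smallest adjusted p 0.00258). The cyclins E, which start S phase and drive histone transcription through NPAT, were the 2 called lower at 10 against 2 µM, beside 1.59% of all genes tested. Ccne1 had 44.2, 44.5 and 42.7 CPM at 2 µM and 23.1 and 24.2 CPM at 10 µM (log2 -0.89). Ccne2 had 99.4, 88.0 and 93.0 CPM at 2 µM and 43.0 and 47.8 CPM at 10 µM (log2 -1.04). The untreated means lay between, at 35.3 CPM for Ccne1 and 66.7 CPM for Ccne2. Their log2 values were 0.32 and 0.49 at 2 against 0 µM and -0.57 and -0.55 at 10 against 0 µM, none of them called. Npat, also named for its role, had a log2 change of -0.10 at 10 against 0 µM, while the most abundant genes of the list, Ccna2 and Casp8ap2, were both at -0.32.

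Histone variants encoded outside the clusters did not all move with the cluster genes. Most are made throughout the cell cycle from polyadenylated mRNA, while H2afx also gives a stem-loop mRNA linked to replication. H1f0, the linker histone of resting and differentiated cells, had 199, 187 and 193 CPM at 0 µM and 404 and 335 CPM at 10 µM. It was the only gene of the 11 variants called higher at 10 against 0 µM (log2 0.94 ± 0.09, adjusted p = 9.9e-05) and at 10 against 2 µM (1.03), beside 1.95% and 3.92% of all genes tested. H3f3b, which encodes H3.3, was at 586, 500.0 and 516 CPM at 0 µM and 596 and 552 CPM at 10 µM, and H2afz, which encodes H2A.Z, had a log2 change of -0.09. H2afx and H2afy were not called at 10 against 0 µM (-0.52 and -0.51) and were called lower at 10 against 2 µM (-0.63 and -0.70).

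Histone chaperones carry new histones to DNA. None of 19 was called at 10 against 0 µM (median log2 -0.25, 18 negative, smallest adjusted p 0.00775), and 3 were called lower at 10 against 2 µM, beside 1.59% of all genes tested. These were Chaf1b (-0.63), a subunit of the factor that assembles nucleosomes behind the fork, Asf1b (-0.65), which hands over H3 and H4, and Nasp (-0.64), which holds the soluble stock of H3 and H4. The most abundant chaperone genes, Ssrp1 and Nap1l1, had log2 values of -0.06 and -0.48 at 10 against 0 µM. Of 18 genes of mitosis, all had negative values at 10 against 0 µM (median -0.18, smallest adjusted p 0.0042) and none was called. The most abundant were Top2a, at -0.05, and Mki67, at -0.51 with an adjusted p of 0.00698 and a change below 1.5-fold.

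**Figure D5:**
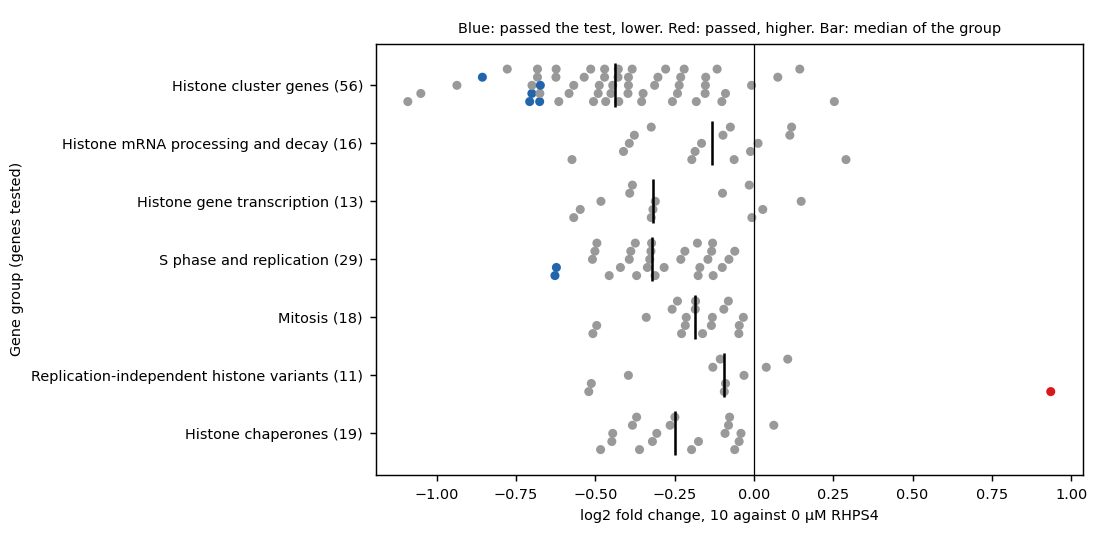
Log2 fold change at 10 against 0 µM RHPS4 (x axis) of the tested genes in the histone clusters and in the 6 lists (y axis, number of genes tested), where each point is a gene, the vertical bar is the median, and blue or red points passed the test. The medians run from -0.44 for the histone cluster genes to -0.09 for the replication-independent variants, whose red point is H1f0 at 0.94.

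The promoters of the genes called at 10 against 0 µM are shown because these genes were lower together. RefSeq (GRCm38.p6) gave the 250 bases before and 50 after the start for 61 of the 68 genes, which include 4 of these 5 genes but not Hist1h2bc. Capitals mark 3 motifs on either strand, none of which contains another. These are the CCAAT box, with the letters CCAAT, the TATA box, sought as TATAAA, and the octamer, sought as ATTTGCAT. The window of Hist1h2bj lies at chr13:22042948-22043247 on the plus strand and overlaps the window of Hist1h2ag, which is read in the opposite direction. That of Hist1h2ai lies at chr13:21716162-21716461 on the plus strand, that of Hist1h4j at chr13:21734784-21735083 on the plus strand, and that of Hist4h4 at chr6:136804382-136804681 on the minus strand.
Hist1h2bj: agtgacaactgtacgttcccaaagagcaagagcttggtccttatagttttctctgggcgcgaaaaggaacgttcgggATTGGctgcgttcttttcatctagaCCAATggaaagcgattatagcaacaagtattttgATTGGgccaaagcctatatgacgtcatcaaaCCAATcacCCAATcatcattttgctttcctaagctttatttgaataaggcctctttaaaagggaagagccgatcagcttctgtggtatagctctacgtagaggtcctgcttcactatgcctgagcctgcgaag
Hist1h2ai: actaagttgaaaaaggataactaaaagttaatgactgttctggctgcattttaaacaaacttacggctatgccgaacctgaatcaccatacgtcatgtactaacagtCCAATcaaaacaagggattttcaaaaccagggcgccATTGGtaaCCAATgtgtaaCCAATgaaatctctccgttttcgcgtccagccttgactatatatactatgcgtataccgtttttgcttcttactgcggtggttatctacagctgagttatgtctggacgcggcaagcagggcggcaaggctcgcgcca
Hist1h4j: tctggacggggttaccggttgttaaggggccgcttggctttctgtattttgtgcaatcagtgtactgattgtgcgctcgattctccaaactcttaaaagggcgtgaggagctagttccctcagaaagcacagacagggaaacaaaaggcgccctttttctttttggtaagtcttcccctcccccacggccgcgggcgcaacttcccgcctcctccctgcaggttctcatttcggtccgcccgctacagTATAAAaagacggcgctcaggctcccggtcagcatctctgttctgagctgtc
Hist4h4: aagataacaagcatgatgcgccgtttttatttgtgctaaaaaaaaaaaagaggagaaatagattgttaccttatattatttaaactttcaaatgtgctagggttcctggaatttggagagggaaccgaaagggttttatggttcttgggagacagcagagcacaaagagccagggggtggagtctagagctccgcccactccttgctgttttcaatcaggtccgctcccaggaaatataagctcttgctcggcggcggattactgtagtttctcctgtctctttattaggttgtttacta
Hist1h2bj and Hist1h2ag, whose windows overlap, had log2 changes of -0.71 and -1.05 at 10 against 0 µM. The window of Hist1h2ai overlaps that of Hist1h2bl, named here for that reason, and these 2 genes had log2 changes of -0.68 and -0.30. Hist1h2bl was not called, and a part of shared windows in the changes was not tested. CCAAT was found in 52 of the 61 windows (85.2%), beside 37.9% of 27025 RefSeq windows of the same length. TATAAA was found in 35 of the 61 (57.4%, beside 14.2%), and ATTTGCAT in 13 (21.3%, beside 1.75%). Matches were counted anywhere in a window, so a TATAAA match need not be a TATA box. In Hist1h4j it begins 2 bases before the start of the gene, and in Hist1h4f 250 bases before it. Windows that overlap can hold the same site, which was then counted for each gene. Of the 7 windows of genes called at 10 against 0 or 2 µM, 5 held CCAAT, 3 TATAAA and 2 ATTTGCAT. A pattern of 4 runs of at least 3 G with 1 to 7 bases between them, the letters of a potential G-quadruplex, was found on either strand in 5 of the 61 windows (8.20%), beside 18.1% of all windows. None of the 7 windows of called genes held it. These matches describe letters and not binding.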

How the data were processed

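The deposited values are counts of fragments per gene and library, which the authors made without normalization. Per the submitters' processing notes and the study's methods, 75 bp paired reads were checked with FastQC, trimmed with Trim Galore and cutadapt, aligned to mm10 with STAR 2.5.2a and counted with featureCounts as uniquely mapped fragments. The gene annotation and the strand setting of the counting are not given in the sources used here, so reads of overlapping antisense genes may be mixed in.

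For the tests, edgeR 4.0.16 under R 4.3.3 was applied to the 8 libraries together (filterByExpr, TMM, glmQLFit, glmQLFTest) with dose as the only factor, with Benjamini-Hochberg adjustment over the 14296 genes tested. A gene was called at an adjusted p under 0.01 and a change over 1.5-fold, the thresholds of the study. DESeq2 1.42.0 was an alternative. The fits were tested on simulated counts. CPM are counts relative to TMM-scaled library sizes, and a sum over a class was not tested. Libraries of a dose differed by a chi-square of at least 3.7 per degree of freedom, so each was used as its own replicate.

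The histone genes, the lists and the alternatives were chosen with earlier results of these data known. Members named with values were those called in any comparison, those in a supplementary gene list of the study (which was drawn from these samples and is not independent evidence) and the 3 most abundant of each class. Of each list, the called genes and the 2 most abundant were named, with Slbp and Npat added for their roles, and 1 called gene of the S phase list is not reported here.

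Stem-loops, coding lengths, GC content and 75-base stretches came from GENCODE vM21 transcripts, the stem-loop being sought as 6 pairs (G with T allowed) that open with GG and close with CC around a loop of 4 bases that starts with T and has at least 3 T. Alternatives were the scaling, the filter, the tool, the libraries, the fold limit and restriction to genes with mostly unique sequence, and, chosen after seeing the data, a GC content correction and a fit without the 2 libraries that stood apart.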

Additional observations from a re-analysis of the deposited data

How the results depend on the processing

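At 10 against 0 µM RHPS4 the count of called histone genes was 5. It was 1 with total counts only and with only the 2 groups compared, 10 with no filter on low counts and with DESeq2, 9 with no minimum fold change, and 2 among genes with at least 50% unique stretches. Leaving out single libraries gave 3 to 6. At 10 against 2 µM the count was 9. It was 3 with total counts only, 18 with no filter and with DESeq2, 16 with no minimum fold change, and 4 among genes with mostly unique stretches, and leaving out single libraries gave 3 to 15. The replicate number as a block gave 8 and 14 genes, of which 3 and 8 were among those called without it, and 0 at 2 against 0 µM. The numbers were not taken as pairs, since the deviations of same-numbered 0 and 2 µM libraries correlated by 0.199, 0.0845 and 0.161, not all over 0.1. Without both the third 2 µM and the second 10 µM library, a fit chosen after seeing the data, the counts were 1 and 3. With the GC content correction, also chosen later, they were 4 and 9. The median log2 fold change kept its sign under every alternative run. Leaving out libraries it ran from -0.49 to -0.40 at 10 against 0 µM, from -0.60 to -0.47 at 10 against 2 µM and from 0.01 to 0.16 at 2 against 0 µM. With total counts only it was -0.22 and -0.37, where the median of all genes moved to 0.23 and 0.16, so relative to all genes the histone genes stayed lower. Of the genes called at 10 against 0 µM, Hist1h2bc lost the call without the first 10 µM library (adjusted p = 0.0102), as did Hist4h4 (0.0296) and Hist1h4j (0.049), and Hist1h2bj lost it without either 10 µM library (0.0178 and 0.0271). Hist1h2ai lost it without the second 0 µM, 2 µM or 10 µM library (0.0211, 0.0154 and 0.065). Hist1h4j lost it without 6 of the 8 libraries in turn. Without the first 10 µM library, Hist1h2ak (log2 -1.87, adjusted p = 0.00569), Hist1h2ag (-1.80) and Hist1h3a (-0.92) were called. A fit without a 10 µM library leaves that dose with 1 library, which is assumed to vary like the others. The causes of these moves were not tested.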

Other observations

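H1 took 15.4 to 16.5% of the summed histone CPM at 0 µM, 15.7 to 16.0% at 2 µM, and 18.1 and 17.0% in the 10 µM libraries, which were above all others. H2A took 9.75 to 11.2% at 0 µM and 8.79 to 11.2% at 2 µM, and it took 10.7% in the first and 6.94% in the second 10 µM library. H4 took 27.7 to 29.5% at 0 µM, and 27.0 and 32.1% at 10 µM. H2B stayed between 30.1 and 31.8% in all 8 libraries and was the largest class in all but the second 10 µM library.

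The untreated libraries differed among themselves. In the first, which was also the smallest, the histone genes stood above the mean of the other untreated libraries by a median log2 ratio of 0.28, beside 0.02 for all genes tested. By class this median was 0.33 for H4, 0.32 for H2B, 0.20 for H1, 0.14 for H3 and 0.02 for H2A.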
